A study of Homo sapiens with 6 samples.

Results

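Heat shock proteins and chaperonins fold newly made and damaged proteins, and 45 genes of this machinery were examined in OCI-AML3, a long-established cell line from a human acute myeloid leukaemia with a mutated allele of NPM1. The genes were taken from the table of 28307 genes by their NCBI symbols: heat shock factor HSF1, 9 genes of the HSP70 and HSP110 family, 4 of the HSP90 family, 11 J-domain (DNAJ) genes, 8 subunit genes of the chaperonin CCT, the mitochondrial pair HSPD1 and HSPE1, the small heat shock protein gene HSPB1, 8 co-chaperone genes and the collagen chaperone gene SERPINH1. All 45 had a row in the table and 44 had enough counts to be tested. Cells received 10 nM of either a control siRNA (siControl) or an siRNA against the mutant NPM1 (siNPM1c) by lipid transfection, and RNA was taken on day 3, with 3 libraries in each group. All 6 libraries carry the same genotype entry (WT) and the same batch entry, they come from 1 cell line, and nothing says that replicates were separate cultures, so each p-value reflects the spread among these 6 libraries alone, and that spread may be technical.

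HSP70 proteins hold unfolded stretches of a client protein in cycles of ATP hydrolysis that J-domain proteins start and exchange factors such as BAG3 end. HSP90 acts later, on partly folded kinases and hormone receptors, and takes its clients from HSP70 through STIP1, while CCT closes a double ring of 8 related subunits around actin, tubulin and other clients. HSF1 is the transcription factor that raises many of these genes when unfolded protein accumulates. Many of the kinases that drive leukaemias are HSP90 clients.

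The libraries held 15075235 to 25190122 counts. Ribosomal RNA genes took 63.0% to 64.5% of them in the siControl libraries and 69.4% to 71.1% in the siNPM1c libraries, and protein-coding genes took at least 28.1% and at most 22.3%, respectively. NPM1, the target, had 922, 1366 and 922 counts with siControl but 293, 500 and 350 with siNPM1c, a fall of 1.10 on the log2 scale (SE 0.05). Counts per gene do not separate mutant from unmutated NPM1 transcripts, so the fall of the mutant transcript alone is not known. All 9 myeloid markers were measured, with a summed level of 621 to 638 CPM (counts scaled to library size, with TMM factors) with siControl and 1105 to 1125 CPM with siNPM1c, of which LYZ gave at most 406 CPM. In bulk RNA fewer cells of a type and less RNA per cell cannot be told apart, and the part of this shift in the chaperone differences was not tested. Markers of 5 other cell types stayed at or below 2.03 CPM in sum, with CD3D and HBB at 0 in every library.

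More of the chaperone genes were lower than higher in the siNPM1c libraries. In the quasi-likelihood test of edgeR, adjusted after Benjamini and Hochberg over all 12938 genes tested, 23 of the 44 tested members fell, 8 rose and 13 did not pass an adjusted p of 0.05. Over all genes 42.7% passed, 21.4% as lower and 21.3% as higher. The members' median log2 fold change was -0.22, beside -0.01 over all genes, and ran from -1.09 for HSPA14 to 0.41 for HSPB1. The values of the groups did not overlap for 23 members that were lower and 7 that were higher, where 24.9% of all genes did not overlap as lower and 24.3% as higher (49.2% in all). All directions assume TMM scaling, under which most genes are taken not to change. Scaled by library sizes alone, the median of all genes was -0.48 and that of the members -0.69, 42 members were lower, and all 8 members that rose had values below 0. Library sizes include the counts of ribosomal RNA genes. With structural RNA genes left out before TMM scaling, or with protein-coding genes only, 23 members were lower and 8 higher. These settings also take most genes not to change.

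**Figure D1:**
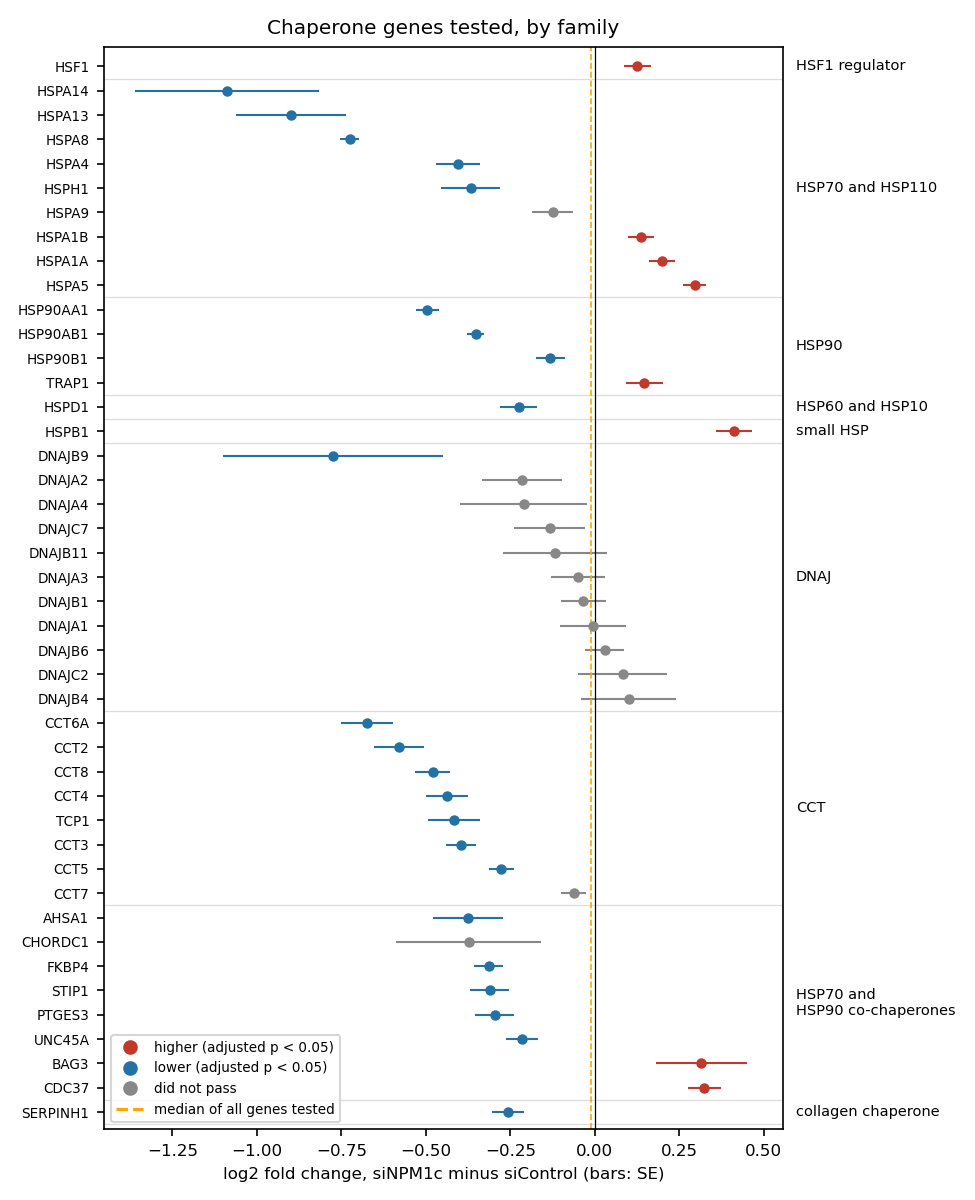
Log2 fold change (x axis, siNPM1c minus siControl, bars are the SE of the fit) of the 44 tested chaperone genes, grouped by family and coloured by whether they passed an adjusted p of 0.05. The CCT genes lie left of 0, the DNAJ genes lie around 0, and the HSP70 and HSP90 families have members on both sides; the dashed line is the median of all 12938 genes tested, -0.01.

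The 45 genes together were also taken as a share of the counts of all protein-coding genes, which uses no TMM factors. They took 0.736%, 0.747% and 0.764% with siControl but 0.608%, 0.613% and 0.621% with siNPM1c. The groups did not overlap. Without the abundant HSPA8, HSP90AA1 and HSP90AB1 the shares were 0.514%, 0.523% and 0.530% against 0.460%, 0.464% and 0.469%, again without overlap. Such a share also falls when other protein-coding genes rise, and it keeps any trend with GC content. The median GC content was 45.9% for the tested members and 50.8% for all protein-coding genes tested.

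HSF1, the regulator itself, stood at 63.9, 61.6 and 61.1 CPM with siControl and at 66.05, 68.1 and 69.0 CPM with siNPM1c. The difference was small, 0.13 ± 0.04 log2 (SE), with an adjusted p of 0.00556 by edgeR, and it became 0.02 (adjusted p = 0.788) when each library's trend with GC content was corrected. Among related genes HSF2, another heat shock factor, fell by 0.67 (SE 0.25) from a low level of 1.95, 1.74 and 2.37 to 1.504, 1.246 and 1.01 CPM, and HSF4 did not pass (-0.19 ± 0.11). HSBP1, which binds HSF1 trimers, fell by 0.56 (SE 0.21). The calls of HSF2 and HSBP1 were lost with the GC correction (adjusted p = 0.112 and 0.0567 by edgeR) with DESeq2 (0.0984 and 0.119), without siControl replicate 3 (0.107 and 0.153) and without siNPM1c replicate 2 (0.0655 and 0.135). That of HSF2 was also lost without siNPM1c replicate 3 (0.0994), and that of HSBP1 without siNPM1c replicate 1 (0.0841).

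HSF1 binds the heat shock element, an array of GAA units in alternating orientation, and the promoters of several members show such arrays. Promoter windows of RefSeq (GRCh38.p14), from 250 bases before to 50 after a transcript start, were found for 41 of the 45 members, 57 windows in all; HSF1, HSPA14, CCT6A and FKBP4 had none. An element of 3 units, GAA and TTC in turn with 2 free bases between neighbours, on either strand, stood in 8 of these windows, 14.0%, and in 0.49% of 35116 windows of the same length. The 8 genes were HSPA8, HSP90AA1, HSP90AB1, HSPD1, DNAJB6, DNAJA1, SERPINH1 and CHORDC1, of which 5 fell, none rose and 3 did not pass. An element of 2 units (GAANNTTC or TTCNNGAA, which every element of 3 units contains) stood in 20 windows, 35.1%, beside 13.5% of all. Among its 19 genes 9 fell and 3 rose. Of all 44 tested members 52.3% fell and 18.2% rose, beside 21.4% and 21.3% of all genes. These counts therefore do not set the genes with an element apart from the other members. A match is only a run of letters and says nothing about whether HSF1 was bound.

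The elements of 3 units are shown here, 5′ to 3′ on the strand of the gene, with the element in capitals, to set the letters behind this count beside the values that follow. Where the stretch lies in an annotated exon of a coding transcript only 30 bases are given. The element of DNAJA1 begins after its transcript start and is not printed.
HSPA8, distal, chr11:123062353-123062386, minus strand: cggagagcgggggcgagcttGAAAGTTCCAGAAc
HSPA8, proximal, chr11:123062170-123062199, minus strand: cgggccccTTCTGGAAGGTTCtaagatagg
HSP90AA1, chr14:102087111-102087140, minus strand: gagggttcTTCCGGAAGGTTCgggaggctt
HSP90AB1, chr6:44247738-44247865, plus strand: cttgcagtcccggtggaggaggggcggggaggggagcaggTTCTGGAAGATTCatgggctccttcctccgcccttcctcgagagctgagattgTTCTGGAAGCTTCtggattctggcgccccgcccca
HSPD1, chr2:197500061-197500090, minus strand: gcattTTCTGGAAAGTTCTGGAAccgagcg
DNAJB6, chr7:157336833-157336925, plus strand: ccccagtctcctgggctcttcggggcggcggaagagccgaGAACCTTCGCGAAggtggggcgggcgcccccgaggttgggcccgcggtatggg
SERPINH1, chr11:75562169-75562198, plus strand: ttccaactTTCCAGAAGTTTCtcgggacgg
CHORDC1, chr11:90223083-90223112, minus strand: ccgGAAAATTCGCGAAGGTTCCTGAAacgc

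The proximal element of HSPA8 begins 55 bases before its start, that of HSP90AA1 88 bases, those of HSP90AB1 165 and 112 bases, and that of SERPINH1 76 bases. In HSPD1 and CHORDC1 neighbouring elements share units and run together into 1 longer array. The stress-inducible pair HSPA1A and HSPA1B rose slightly, and DNAJB1, a classical heat shock gene, did not pass. For comparison, their windows held exact matches to the element of 2 units only, here in capitals. Units with a mismatch were not counted, and in each of these genes a unit with 1 mismatch follows an element shown. The count thus does not show that their elements are shorter.
HSPA1A, chr6:31815397-31815463, plus strand: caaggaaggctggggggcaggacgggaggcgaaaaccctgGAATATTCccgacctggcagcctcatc
HSPA1B, chr6:31827593-31827680, plus strand: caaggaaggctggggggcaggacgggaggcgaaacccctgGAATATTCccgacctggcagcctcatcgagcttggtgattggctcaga
DNAJB1, chr19:14518421-14518514, minus strand: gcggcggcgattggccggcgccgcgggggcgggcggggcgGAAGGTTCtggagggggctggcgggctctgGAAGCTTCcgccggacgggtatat

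In the HSP70 and HSP110 family 5 of 9 tested genes fell and 3 rose, with a median of -0.37. The median was -0.15 with the GC correction (4 lower, 2 higher) and -0.14 over the 7 genes that passed the filter of 5 CPM, and with library sizes alone all 9 were lower. HSPA8 (Entrez gene 3312, chromosome 11, 123057489 to 123062462 on GRCh38), the constitutive HSP70 of the cytosol that also strips clathrin from vesicles, was the most abundant of them. It stood at 214, 216 and 226 CPM with siControl but at 131, 130.4 and 135 CPM with siNPM1c. Every siNPM1c library lay far below every siControl library. The fall was 1.65-fold, -0.73 ± 0.03 log2 (SE), with an adjusted p of 1.76e-69 by edgeR. It was -0.66 with the GC correction and -1.19 with library sizes alone.

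HSPA4 (chromosome 5), an HSP110-type exchange factor for HSP70, fell from 25.5, 28.2 and 25.4 CPM to 21.3, 19.6 and 19.6 CPM, by 0.40 (SE 0.07) on the log2 scale. HSPH1, the HSP110 exchange factor proper, fell from 13.3, 14.5 and 14.9 to 10.2, 11.4 and 11.4 CPM. Its groups did not overlap either, but its call was lost with the GC correction (-0.15, adjusted p = 0.175 by edgeR). HSPA13, an HSP70 of microsomes (chromosome 21), fell from 3.84, 5.36 and 5.87 to 2.78, 2.83 and 2.50 CPM. HSPA14, which works with DNAJC2 at the ribosome, fell from 1.72, 2.14 and 1.67 to 1.13, 0.910 and 0.608 CPM. Its 9 to 59 counts per library make its value of -1.09 ± 0.27 (SE) the least precise of those above. HSPA14 had 164 counts in all and overlaps MSANTD7, which had 650 and did not pass (-0.09). Reads of the overlapping genes may not be separate. HSPA9, the mitochondrial HSP70, did not pass (-0.12 ± 0.06, adjusted p = 0.083 by edgeR). It did pass with upper-quartile scaling, with library sizes alone, with the filter of 5 CPM, and without siControl replicate 2 or siNPM1c replicate 2.

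The other HSP70 genes went against the rest of the family. HSPA5 (Entrez gene 3309, chromosome 9, 125234853 to 125241343), which encodes BiP, the HSP70 of the endoplasmic reticulum and the sensor partner of the unfolded protein response, stood at 83.6, 88.3 and 94.4 CPM with siControl and at 108, 107 and 113 CPM with siNPM1c. The groups did not overlap, and the rise was 1.23-fold, 0.30 ± 0.03 log2 (SE), with an adjusted p of 7.24e-15 by edgeR. The GC correction gave 0.37, and library sizes alone gave -0.17. HSPA1A, the main stress-inducible HSP70 (chromosome 6, 31815543 to 31817942), stood at 65.4, 63.0 and 62.6 CPM against 73.5, 73.0 and 72.5 CPM. Its neighbour HSPA1B, a near-identical copy (chromosome 6, 31827738 to 31830254), stood at 62.9, 61.6 and 62.4 CPM against 69.4, 67.6 and 68.4 CPM. Both rises were small, 0.20 ± 0.04 and 0.14 ± 0.04 log2 (SE), and both turned negative with library sizes alone (-0.27 and -0.33). That of HSPA1B was lost with the GC correction (0.06, adjusted p = 0.217 by edgeR). The HSPA1A to HSPA1B count ratio was 1.00 to 1.04 with siControl and 1.06 to 1.08 with siNPM1c. How reads that fit both copies were divided is not given in the sources used here, so the values of the 2 genes are uncertain one by one.

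Ratios of raw counts within a library do not depend on scaling between libraries. They do keep any trend with GC content, which was 46.8% for HSPA8, 46.0% for HSPA5 and 59.25% for HSPA1A. HSPA8 had 2.56, 2.44 and 2.40 times the counts of HSPA5 with siControl, but 1.22, 1.22 and 1.20 times with siNPM1c. Against HSPA1A the ratio was 3.27, 3.43 and 3.61 with siControl and 1.78, 1.79 and 1.87 with siNPM1c. The balance among these HSP70 genes thus differed between the groups without overlap, by -1.02 and -0.92 on the log2 scale. For each of 7 ratios computed, an exact permutation test (two-sided, 3 libraries a group) gave its smallest possible p of 0.1, also after adjustment over the 7. In all of them but HSPA1A to HSPA1B the first gene had the lower fold change. The direction of these ratios therefore adds nothing to the fold changes. Per kilobase of the longest coding transcript, HSPA8 had 88.8 CPM with siControl and 53.7 with siNPM1c, HSPA1A 25.7 and 29.4, and HSPA5 22.7 and 27.9, so the order of these levels was the same in both groups.

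**Figure D2:**
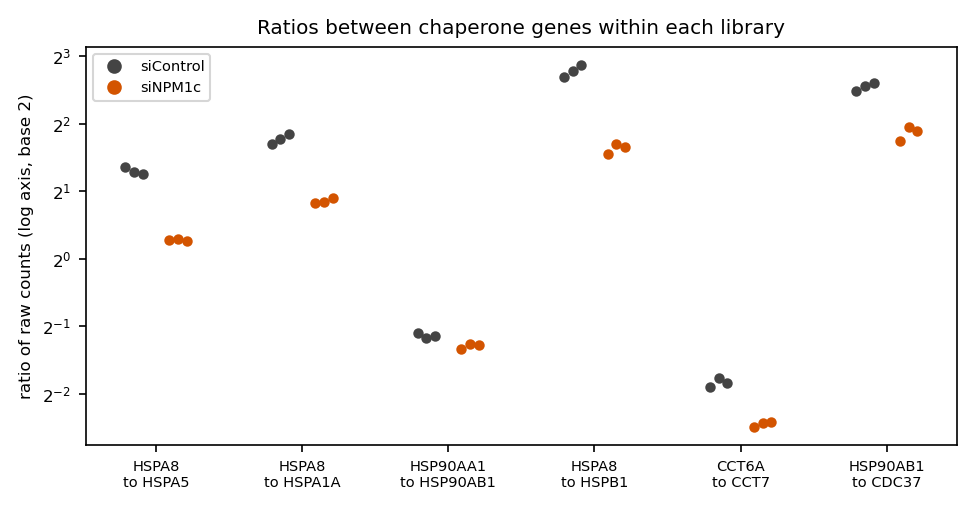
Ratio of raw counts between pairs of chaperone genes (y axis, log scale of base 2) in each of the 3 siControl and 3 siNPM1c libraries, 1 point per library. In all 6 pairs shown the siNPM1c points lie below the siControl points, as for HSPA8 to HSPA5 (1.20 to 1.22 against 2.40 to 2.56). In each of these pairs the first gene had the lower fold change, so this direction follows from the choice of pairs. The ratio of HSPA1A to HSPA1B, slightly higher with siNPM1c, is not shown.

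Among the HSP90 genes the cytosolic pair fell most; 3 of 4 fell and 1 rose, with a median of -0.24. With the GC correction 2 were lower and none higher, with a median of -0.14, and with library sizes alone all 4 were lower. HSP90AB1 (Entrez gene 3326, chromosome 6, 44246194 to 44253883), the constitutive cytosolic HSP90, stood at 222.5, 226.2 and 234.1 CPM with siControl and at 177.9, 178.5 and 178.4 CPM with siNPM1c. The fall was 1.28-fold, -0.35 ± 0.03 log2 (SE), with an adjusted p of 1.81e-30 by edgeR. HSP90AA1 (chromosome 14), its stress-inducible counterpart, had 1873, 2761 and 1971 raw counts with siControl and 939, 1551 and 1096 with siNPM1c. In CPM it fell 1.41-fold, from 103 ± 3.12 (SD, n = 3) to 73.0 ± 2.04 (-0.50, adjusted p = 3.37e-31 by edgeR). For both genes the groups lay well apart. The HSP90AA1 to HSP90AB1 count ratio moved from 0.468, 0.442 and 0.453 to 0.397, 0.416 and 0.415, also without overlap.

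The organelle forms of HSP90 moved less. HSP90B1 (chromosome 12), the GRP94 of the endoplasmic reticulum, stood at 57.8, 62.5 and 61.8 CPM against 52.0, 58.3 and 55.4 CPM, and its groups overlapped. Its fall of 0.13 (SE 0.04, adjusted p = 0.00678 by edgeR) was lost without siControl replicate 2 (adjusted p = 0.0678) and without siNPM1c replicate 1 (0.121) and with DESeq2 (0.0806), and the value turned to 0.02 with the GC correction. TRAP1 (chromosome 16), the mitochondrial HSP90, stood at 30.8, 31.4 and 33.9 CPM against 34.0, 34.2 and 38.2 CPM. Its rise of 0.15 ± 0.05 log2 (SE, adjusted p = 0.022 by edgeR) was lost without siControl replicate 1 (adjusted p = 0.0821), without siControl replicate 2 (0.0877), without siNPM1c replicate 3 (0.218), with DESeq2 (0.105), with no filter beyond 1 count (0.0894) and with the GC correction (0.277).

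**Figure D3:**
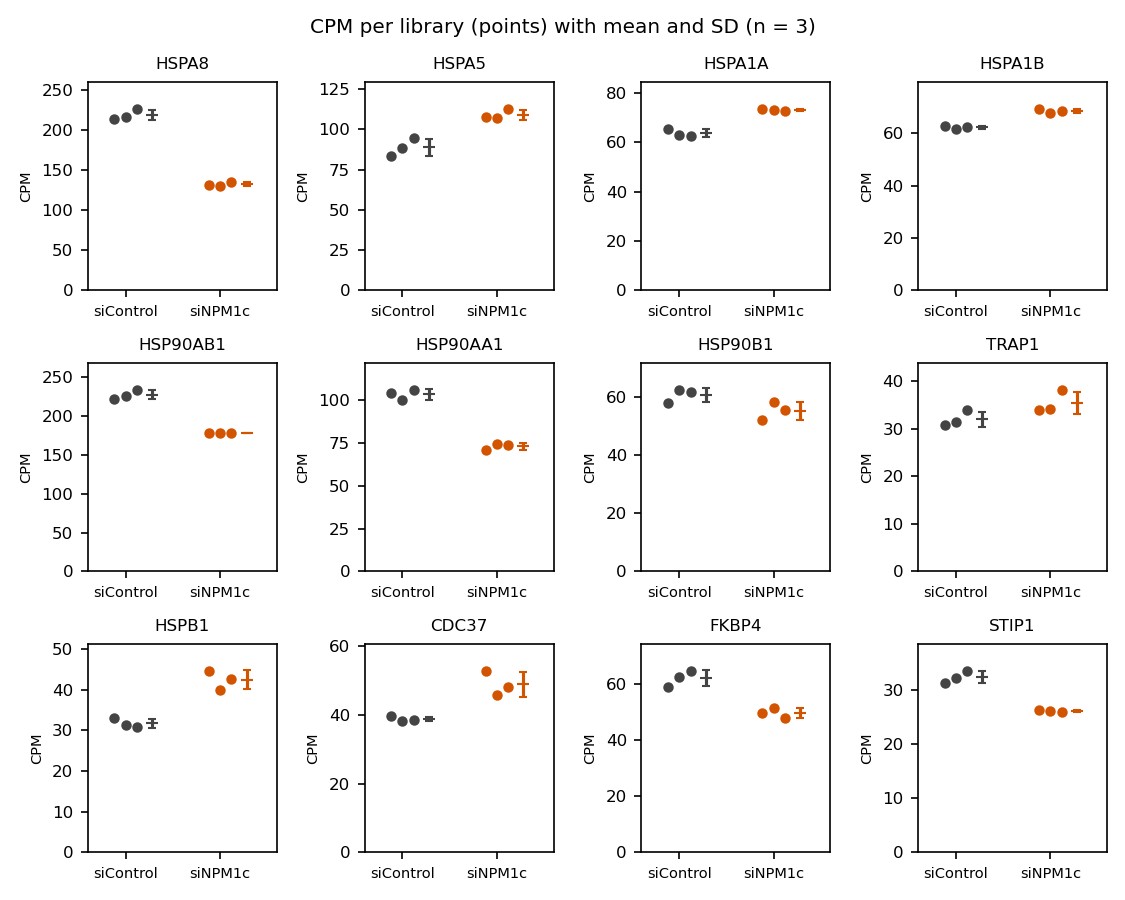
CPM (y axis, from 0) of 12 chaperone genes in each library, with 3 points per group and the mean with its SD beside them. HSPA8, HSP90AB1, HSP90AA1, FKBP4 and STIP1 are lower in all 3 siNPM1c libraries, HSPA5, HSPB1 and CDC37 are higher in all 3 (below 0 as log2 fold changes with library sizes alone), and the groups of HSP90B1 overlap.

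HSPA5 and HSP90B1 share a known promoter element of the unfolded protein response, the ER stress element (CCAAT and CCACG with 9 free bases between them, on either strand), and were the only members with a match, beside 0.0769% of all windows. HSPA5 rose and HSP90B1 was lower in the main fit, but the groups of HSP90B1 overlapped and its call was lost in several settings, as given above. With the GC correction HSPA5 had 0.37 and HSP90B1 0.02, and with library sizes alone -0.17 and -0.60. Whether the 2 genes with this element moved together thus depended on the setting. Their stretches are shown with the element in capitals, in HSP90B1 once on each strand.
HSPA5, chr9:125241351-125241449, minus strand: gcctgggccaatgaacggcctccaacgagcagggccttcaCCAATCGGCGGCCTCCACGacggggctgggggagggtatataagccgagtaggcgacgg
HSP90B1, distal, chr12:103930211-103930240, plus strand: cctgaCCAATCGGAAGGAGCCACGcttcgg
HSP90B1, proximal, chr12:103930316-103930345, plus strand: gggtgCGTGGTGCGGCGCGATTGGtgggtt

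Subunit genes of CCT shared a direction, but not the size of the change. Of the 8 tested, 7 fell and none rose, with a median of -0.43 and a range from -0.67 for CCT6A to -0.06 for CCT7, and 8 were lower with library sizes alone. The 7 calls held with the GC correction, where the median was -0.32, and without any single library. CCT8 (chromosome 21) fell from 44.7, 44.3 and 49.9 CPM to 32.5, 32.8 and 34.0 CPM, by 0.48 (SE 0.05) on the log2 scale with an adjusted p of 1.44e-16 by edgeR. CCT6A (chromosome 7) fell 1.59-fold, from 19.8, 21.2 and 19.9 CPM to 11.7, 13.4 and 13.0 CPM. CCT2 (chromosome 12) fell from 19.96, 21.9 and 24.3 CPM to 13.8, 14.9 and 15.4 CPM. In each of these the siNPM1c libraries lay below all siControl libraries.

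CCT3 (chromosome 1) fell from 58.4, 57.4 and 60.6 CPM to 45.7, 42.7 and 46.0 CPM. TCP1 fell by 0.42 (SE 0.08), CCT4 by 0.44 (SE 0.06) and CCT5 by 0.28 (SE 0.04) on the log2 scale. CCT7 (chromosome 2) was the one subunit gene that did not pass, at 73.4, 72.3 and 71.5 CPM against 65.9, 72.0 and 69.1 CPM (-0.06 ± 0.04, adjusted p = 0.18 by edgeR), and its groups overlapped. CCT7 accordingly made up 20.1% ± 0.709 (SD, n = 3) of the counts of the 8 genes with siControl and 24.1% ± 0.839 with siNPM1c, while CCT6A went from 5.64% ± 0.223 to 4.44% ± 0.251. The CCT6A to CCT7 count ratio was 0.270, 0.293 and 0.279 against 0.178, 0.186 and 0.188. The protein ring holds each subunit in equal number, yet per kilobase of the longest coding transcript the siControl levels ran from 7.47 CPM for CCT6A and 7.52 for TCP1 to 35.7 for CCT7. The 8 genes together took 0.145% to 0.151% of protein-coding counts with siControl and 0.110% to 0.113% with siNPM1c. Reads of CCT6A can also fit its transcribed pseudogenes CCT6P1 and CCT6P3, which had 16 to 54 counts per library. TCP1 overlaps ACAT2, and CCT4 overlaps COMMD1, and the strand setting of the counting is not given in the sources used here.

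**Figure D4:**
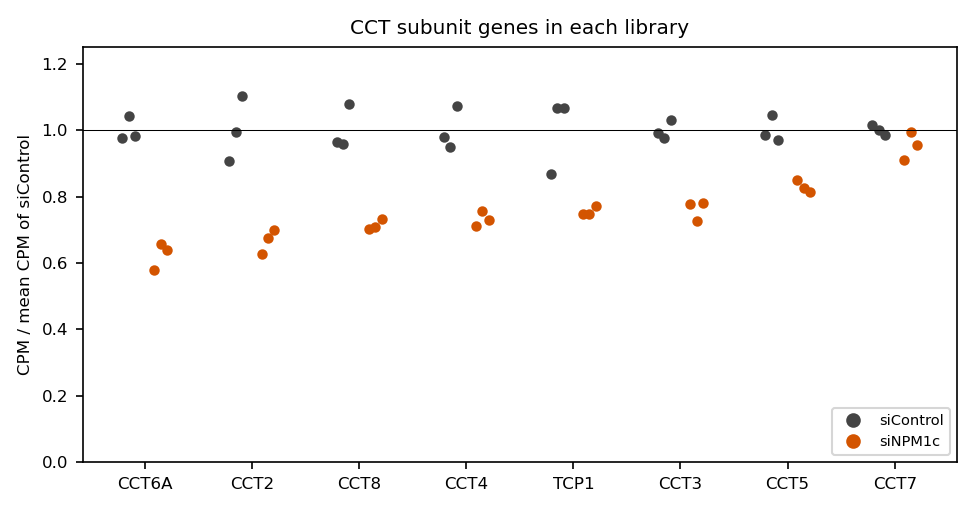
CPM of each CCT subunit gene divided by its siControl mean (y axis), 1 point per library, with subunits ordered by fold change. In 7 subunits the siNPM1c points lie below all siControl points, and CCT7 is the one in which the groups overlap.

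The mitochondrial chaperonin was covered by 1 gene only. HSPD1 (chromosome 2, 197486584 to 197500274), which encodes HSP60, fell from 38.3, 34.0 and 39.2 CPM to 29.8, 32.7 and 31.6 CPM, without overlap, by 0.22 (SE 0.05, adjusted p = 0.000273 by edgeR). Its call was lost with the GC correction (-0.12, adjusted p = 0.0562). HSPE1, its HSP10 lid, is encoded head to head with HSPD1 and had only 9, 12 and 6 counts with siControl and 3, 10 and 3 with siNPM1c, too few to be tested. The annotated readthrough gene HSPE1-MOB4 spans HSPE1 on the same strand and had 0 counts in every library. How reads shared by overlapping genes were counted is not given, so the low HSPE1 counts cannot be read as a level.

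HSPB1 (Entrez gene 3315, chromosome 7, 76302673 to 76304292), the small heat shock protein HSP27 that holds unfolded proteins without ATP, had the largest rise among the members. It stood at 33.1, 31.3 and 31.0 CPM with siControl and at 44.7, 40.05 and 42.7 CPM with siNPM1c. The groups did not overlap, and the rise was 1.33-fold, 0.41 ± 0.05 log2 (SE), with an adjusted p of 2.26e-12 by edgeR. It was 0.30 with the GC correction and -0.06 with library sizes alone. HSPA8 counts were 6.46, 6.90 and 7.31 times those of HSPB1 with siControl, and 2.93, 3.26 and 3.17 times with siNPM1c.

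Among J-domain genes, which select the clients of HSP70, 1 of 11 tested fell, none rose and 10 did not pass. With DESeq2 and with the GC correction none fell, and with library sizes alone all 11 were lower, with a median of -0.52. The 10 had log2 fold changes from -0.21 to 0.10 with SE of 0.06 to 0.19 and siControl levels of 3.00 to 29.8 CPM. DNAJA1, the main cytosolic partner of HSPA8, stood at 9.90, 10.0 and 9.64 CPM against 9.55, 10.2 and 9.59 CPM, with a difference of -0.00 ± 0.10 (SE). DNAJB1, a heat-inducible partner, stood at 21.4, 23.7 and 20.8 CPM against 21.1, 21.4 and 22.4 CPM, with -0.03 ± 0.07. DNAJB6, a suppressor of aggregation, had 0.03 ± 0.06. For these 3 genes the groups overlapped.

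DNAJA2 (-0.21) and DNAJC7 (-0.13) were lower in every siNPM1c library than in any siControl library but did not pass. DNAJA3, DNAJA4, DNAJB4, DNAJB11 and DNAJC2 did not pass either, though DNAJC2, the ribosome-bound partner of HSPA14, did so as higher with the GC correction (0.32, adjusted p = 0.0417 by edgeR). DNAJB9, an ER co-chaperone of BiP, was the J-domain gene that fell, by 0.77 (SE 0.33) on the log2 scale. It had 21, 37 and 17 counts with siControl and 8, 10 and 15 with siNPM1c. Its CPM groups overlapped, and its adjusted p of 0.0441 by edgeR was lost without siControl replicate 1 (0.0699), siControl replicate 2 (0.212), siNPM1c replicate 1 (0.116) or siNPM1c replicate 2 (0.308), with the GC correction (0.154), with no filter beyond 1 count (0.0643) and with DESeq2 (0.2). DNAJB1 overlaps TECR, DNAJC7 overlaps CNP and DNAJC2 overlaps PMPCB, and reads of such neighbours may not be separate.

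Co-chaperones hand clients on and set the pace of the HSP70 and HSP90 cycles. Of the 8 co-chaperone members tested, 5 fell, 2 rose and 1 did not pass, with a median of -0.30, and 7 were lower with library sizes alone. FKBP4 (chromosome 12), an immunophilin of steroid receptor complexes, fell from 59.1, 62.5 and 64.9 CPM to 49.9, 51.5 and 48.2 CPM, by 0.31 (SE 0.04, adjusted p = 5.53e-11 by edgeR). STIP1 (chromosome 11), the adaptor that joins HSP70 to HSP90, fell from 31.4, 32.4 and 33.7 CPM to 26.3, 26.2 and 26.1 CPM. PTGES3, the p23 that holds HSP90 closed, fell from 32.6, 32.8 and 31.1 CPM to 26.3, 26.3 and 26.1 CPM, a call lost with the GC correction (adjusted p = 0.0674). In these 3 genes the groups did not overlap.

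AHSA1, the activator of the HSP90 ATPase, fell by 0.38 (SE 0.10) and UNC45A, the HSP90 partner for myosin folding, by 0.21 (SE 0.05) on the log2 scale. CHORDC1, with 3 overlapping elements in its promoter, was at 1.94 to 2.67 CPM with siControl and did not pass (-0.37 ± 0.21, SE). CDC37 (chromosome 19), which brings kinases to HSP90, rose from 39.6, 38.4 and 38.6 CPM to 52.9, 45.9 and 48.0 CPM (0.32 ± 0.05, adjusted p = 1.92e-09 by edgeR), with 0.24 under the GC correction and -0.14 under library sizes alone. HSP90AB1 had 5.61, 5.90 and 6.07 times the counts of CDC37 with siControl and 3.36, 3.89 and 3.71 times with siNPM1c, without overlap. BAG3, the HSP70 exchange factor of selective autophagy, stood at 4.95, 5.62 and 3.77 CPM against 5.42, 6.99 and 5.40 CPM with overlap. Its adjusted p of 0.0483 by edgeR was lost with DESeq2 (0.195), with limma-voom (0.0687), with upper-quartile factors (0.0597), with no filter beyond 1 count (0.106), with the GC correction (0.151) and without siControl replicate 1 (0.0615), siControl replicate 3 (0.321) or siNPM1c replicate 2 (0.477).

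SERPINH1 (chromosome 11, 75562253 to 75572783), which encodes HSP47, the collagen-specific chaperone of the endoplasmic reticulum, fell from 51.4, 48.6 and 49.6 CPM to 40.6, 41.1 and 43.3 CPM. The groups did not overlap, and the change was -0.26 ± 0.05 log2 (SE, adjusted p = 9.17e-07 by edgeR). With the GC correction it was -0.36. By compartment, 18 of 34 tested members of the cytosol and nucleus fell (52.9%) and 6 rose (17.65%), beside 21.4% and 21.3% of all genes. Of 6 in the endoplasmic reticulum 4 fell and HSPA5 rose, and of the 4 tested mitochondrial members HSPD1 fell and TRAP1 rose. With library sizes alone the 8 rising genes were all below 0, as given above.

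GC content went along with the direction of the members. Of the 8 members that rose, 7 had a GC content of 57.9% to 64.3%, and HSPA5 had 46.0%. The 23 that fell had 39.7% to 62.8%, with a median of 44.5%. Across the 44 tested members GC content and log2 fold change had a Pearson r of 0.545, and across 12549 genes with a GC value it was 0.247; the points share the same 6 libraries. All genes were split by GC content into 5 bins of equal size. In the 13 members of the lowest bin the median was -0.37, beside -0.22 over all 2510 genes of that bin, and in the 13 of the next bin it was -0.35 beside -0.09. Among the 7 of the middle bin it was -0.31 beside -0.00. In the 2 upper bins, with 7 and 4 members, it was 0.14 and 0.22 beside 0.06 and 0.09. With the GC correction 18 of the 23 falls were kept, and 4 of the 8 rises, those of HSPA1A, HSPA5, HSPB1 and CDC37. The members' median was then -0.14. After the correction the Pearson r was 0.268 across the tested members and 0.0037 across all genes with a GC value. The 5 falls lost were those of HSPH1, HSP90B1, HSPD1, DNAJB9 and PTGES3. The part of GC content and of the larger ribosomal RNA share in the remaining differences was not tested.

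**Figure D5:**
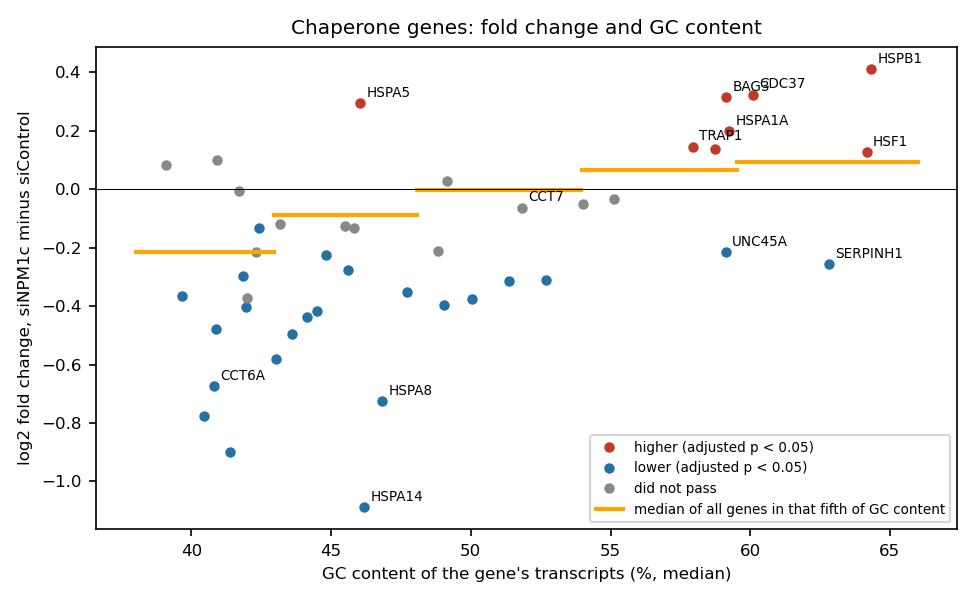
Log2 fold change (y axis, siNPM1c minus siControl) against GC content (x axis, median over the transcripts of a gene, in percent) for the 44 tested chaperone genes, coloured by call. Orange lines give the median log2 fold change of all genes in each of 5 equal bins of GC content, and 7 of the 8 rising genes (all below 0 with library sizes alone) lie at 57.9% or above.

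Other genes of the chaperone network were taken from 8 lists written from textbook roles. Of 119 tested genes in these lists together, 27 fell and 19 rose, 38.7% in all beside 42.7% of all genes, with a median of -0.02. The balance depended on the setting: 15 were lower and 24 higher without siNPM1c replicate 2, 10 and 17 with DESeq2, 20 and 24 with the GC correction, and 88 and 3 with library sizes alone. In the ER folding and unfolded protein response list 8 of 26 tested genes rose (30.8%) and 6 fell (23.1%), beside 21.3% and 21.4% of all genes. The median of the list was 0.13. P4HB, a protein disulfide isomerase, rose from 775, 754 and 751 CPM to 1028, 1028 and 1017 CPM (0.43 ± 0.02, with -0.04 under library sizes alone). CRELD2, an ER stress gene, rose from 31.7, 28.1 and 31.0 CPM to 55.4, 57.8 and 56.1 CPM (0.91 ± 0.05, SE). EDEM1 and SEL1L, which act in the disposal of misfolded ER proteins, fell by 0.18 (SE 0.02) and 0.44 (SE 0.09). The unfolded protein response list thus had calls in both directions, as all genes did.

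Among further J-domain genes 5 of 28 tested rose (17.9%) and 6 fell (21.4%), beside 21.3% and 21.4% of all genes. DNAJC5, a chaperone of secretory vesicles, had 0.27 ± 0.03 (SE) and GAK, the clathrin-uncoating kinase, 0.28 ± 0.04, and both turned negative under library sizes alone (-0.20 and -0.18). DNAJC13 fell by 0.48 (SE 0.06). Of 11 exchange factors and partners of HSP70, 2 rose (18.2%) and 4 fell (36.4%). BAG1 rose from 17.4, 18.2 and 17.2 CPM to 28.9, 29.3 and 30.7 CPM (0.75 ± 0.07, SE), and SIL1, the exchange factor of BiP, rose by 0.52 ± 0.09, a call lost under library sizes alone (0.0525, adjusted p = 0.599 by edgeR). BAG6, which guards tail-anchored membrane proteins, fell by 0.22 (SE 0.03) and BAG5 by 0.44 (SE 0.12). Of 19 further HSP90 co-chaperone genes 3 rose (15.8%) and 5 fell (26.3%). Among them were FKBP8 (0.26 ± 0.03), NUDC (0.32 ± 0.08), NUDCD1 (-0.64 ± 0.17) and RPAP3 (-0.96 ± 0.30). FKBP8 and NUDC turned negative under library sizes alone (-0.21 and -0.15), and the calls of NUDCD1 and RPAP3 were lost with the GC correction (adjusted p = 0.0668 and 0.0655 by edgeR).

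Prefoldin and other partners of CCT showed 1 rise (6.25%) and 3 falls (18.75%) among 16 tested, beside 21.3% and 21.4% of all genes. Their median was -0.07, beside -0.43 for the CCT subunits. VBP1, a prefoldin subunit, fell from 2.50, 2.54 and 3.23 CPM to 1.35, 1.10 and 1.55 CPM, PFDN2, another, rose by 0.46 ± 0.14 (SE, -0.01 under library sizes alone), and the tubulin cofactor gene TBCB fell by 0.26 (SE 0.08). In the mitochondrial list 2 of 18 tested genes rose (11.1%) and 3 fell (16.7%). LONP1, the matrix protease, rose from 71.1, 69.5 and 69.1 CPM to 97.9, 99.7 and 97.4 CPM (0.49 ± 0.04, SE), a call lost under library sizes alone (0.025, adjusted p = 0.6 by edgeR). HSCB had 0.37 ± 0.15 (SE) and turned negative under library sizes alone (-0.09), CLPP fell by 0.37 (SE 0.12) and YME1L1 by 0.17 (SE 0.06), which became -0.0082 with the GC correction (adjusted p = 0.929 by edgeR). The calls of HSCB, CLPP, YME1L1 and TBCB were lost with DESeq2 (adjusted p = 0.128, 0.102, 0.101 and 0.0506). Among 7 tested genes of the remaining HSP70 and small heat shock protein list, HYOU1, an exchange factor of the ER, rose by 0.15 ± 0.04 (SE, -0.32 under library sizes alone) and HSPA4L fell by 0.27 (SE 0.10), a call lost with the GC correction (-0.02) and with DESeq2 (adjusted p = 0.102). HSPA6, a further HSP70 gene of that list, did not pass (-0.15 ± 0.07, SE, adjusted p = 0.0579 by edgeR), though it was lower without overlap. Several calls in these lists were lost when 1 library was left out. By edgeR HSCB had 0.34, 0.30 and 0.29 (adjusted p = 0.0907, 0.147 and 0.184) without siControl replicate 1, siControl replicate 3 or siNPM1c replicate 3. CLPP had -0.25 and -0.21 (0.12 and 0.209) without siControl replicate 2 or siNPM1c replicate 2. YME1L1 had -0.15, -0.16 and -0.14 (0.0551, 0.0614 and 0.0935) without siControl replicate 1, siNPM1c replicate 2 or siNPM1c replicate 3. HSPA4L had -0.27 and -0.24 (0.0574 and 0.0668) without siNPM1c replicate 2 or 3, values close to that with all libraries. Without siControl replicate 2, RPAP3 had -0.81 (0.0518) and BAG5 -0.30 (0.0697).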

How the data were processed

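Total RNA of 6 OCI-AML3 libraries was sequenced. The deposited table holds raw counts for each Entrez gene, as whole numbers, not normalized by the authors. Tools named, without roles, in the submitters' processing notes are STAR 2.7.5a, cutadapt 2.6, CASAVA 1.8 and DESeq2 1.34.0, and the builds are hg38 and mm10; the counting tool, annotation and strand setting are not given in the sources used here. Columns were tied to samples by the column names in the labels, and groups and replicate numbers came from the titles. Symbols were matched for 28261 of 28307 genes (NCBI RefSeq, GRCh38.p14).

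The test was that of edgeR 4.0.16 in R 4.3.3: filterByExpr (minimum count 10, total 15), TMM, glmQLFit with robust = TRUE and glmQLFTest, two-sided, with Benjamini-Hochberg adjustment over 12938 genes and a threshold of 0.05. SE is the absolute log2 fold change over the square root of F. Levels are CPM, with the SD of 3 libraries. A gene's GC content was taken as the median of its GENCODE 29 transcripts (97.0% of tested genes). Scaled by total counts, with ribosomal RNA genes included, replicates had a chi-square per degree of freedom of 1.46 to 2.36. This includes differences in ribosomal RNA share between replicates. In the fit, with TMM, the common coefficient of variation beyond sampling noise was 2.17%. On simulated counts for this comparison (13108 genes tested) 49% of 1.25-fold, 70.2% of 1.5-fold, 93.9% of 2-fold and 100% of 4-fold changes were recovered. Of 154 calls 5 were false. The simulation had 1 common dispersion, 46 to 49 changed genes tested per fold, balanced directions and no shift in ribosomal RNA share. It differs in this from the data and says nothing about errors that come from scaling.

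Values in every library are given for HSF1, for up to 4 called members of smallest adjusted p per family, for called members that moved against their family, and for HSPA1A and HSPA1B; HSPH1, HSPA9, HSPA13, HSPA14, HSPE1, CCT7, DNAJA1, DNAJB1 and some list genes were added after their values were seen. Related genes are up to 2 called genes per direction of each list; some items are not reported here. The members and lists were chosen with earlier results of these data known. The alternatives, 13 settings and leaving out each of 6 libraries, include DESeq2 1.42.0 and limma 3.58.1 (voom); their effect is given at the end.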

Additional observations from a re-analysis of the deposited data

How the results depend on the processing

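Scaling matters most. With library sizes alone 42 members were lower and 0 higher, with a median of -0.69, and 88 genes of the other lists were lower and 3 higher. Values then below 0 were HSF1 -0.34, HSPA1A -0.27, HSPA1B -0.33, HSPA5 -0.17, TRAP1 -0.32, HSPB1 -0.056, DNAJB4 -0.37, DNAJB6 -0.44, DNAJC2 -0.39, BAG3 -0.16, CDC37 -0.14, P4HB -0.037, HSCB -0.093, DNAJC5 -0.20, GAK -0.18, HYOU1 -0.32, FKBP8 -0.21, NUDC -0.15 and PFDN2 -0.011. LONP1 (0.025) and SIL1 (0.0525) lost their calls. With the GC correction, alone and with the replicate block, 5 members were higher, the median was -0.14, and HSP90B1 (0.0244 and 0.0236), DNAJA1 (0.17) and DNAJB11 (0.0189 and 0.0178) changed sign. DNAJA1 also turned to 0.0011 with DESeq2 size factors and 0.0082 with protein-coding genes only.

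Leaving out 1 library at a time gave 21 to 23 members lower, 6 to 8 higher, a median of -0.26 to -0.21, and 15 to 24 lower and 18 to 24 higher in the other lists, of which DESeq2 called 10 as lower. Ranges that crossed 0 were those of DNAJA1 (-0.0359 to 0.0178), DNAJA3 (-0.154 to 0.0251), DNAJB1 (-0.0704 to 0.0363), DNAJB4 (-0.0043 to 0.176), DNAJB6 (-0.0136 to 0.061) and DNAJC2 (-0.0236 to 0.191). In the settings not named here no member changed direction. Whether the replicate numbers pair the libraries is not known. Correlations of same-numbered deviations were -0.00 to 0.02, and values near 0 cannot exclude pairing. In replicates 1, 2 and 3 the ribosomal RNA share was 63.0%, 64.5% and 63.9% with siControl. It was 69.4%, 71.1% and 70.2% with siNPM1c, in the same order. With the replicate block 23 members were lower and 8 higher, the same genes as without it. Low counts limit HSPE1, HSPA14, DNAJB9 and CHORDC1. The cause of these shifts was not tested.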
